A study of Mus musculus with 4 samples.

Results

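The 2 injured libraries of the series were compared over all of their myeloid cells: the library labelled IL-6 knockout and the wild-type library, 1 mouse each, at day 6 after cerebrovascular injury. A cell entered with at least 500 genes, at least 1000 UMIs (unique molecular identifiers, 1 per captured transcript), at most 10% of UMIs from mitochondrial genes and at least 1 UMI of Csf1r, the receptor gene for colony stimulating factor 1 that microglia and macrophages share. This gave 5231 cells, 2787 wild type and 2444 knockout-labelled, of 7375 such cells in the 4 libraries, of 8018 cells that passed the depth and mitochondrial limits and of 16040 deposited barcodes. A cell with a UMI of at least 2 of the 4 microglia markers Sall1, Siglech, P2ry12 and Tmem119 was counted as microglia, and the remaining Csf1r cells are called the rest. The comparison asks how far a gene differed because the libraries held different proportions of microglia and rest, and how far because its level differed within each.

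Droplet libraries that tag the 3′ ends of transcripts were made from CD11b-positive brain cells of 4 mice. The groups are IL-6 wild-type (+/+) and IL-6 knockout (-/-) mice, each after sham surgery or after injury, aged 8 to 12 weeks when operated. Pulsed ultrasound acted on injected microspheres beneath thinned skull. Protocols are given for a mild and for a severe form, and which of them these mice received is not stated. Controls appear both as sham-operated and as uninjured. A 4 mm biopsy punch was dissociated and CD11b-positive cells were enriched with microbeads, so proportions of cells reflect that enrichment as well as the tissue. Each group is 1 mouse and 1 library with no replicate, so no test between groups was possible, and every interval is a 95% interval that covers counting error only, not differences between mice.

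Microglia are the resident macrophages of the brain parenchyma, and in the undisturbed state they express a homeostatic programme that includes P2ry12, Tmem119 and Sall1. After tissue damage, microglia can lower these genes and raise genes of phagocytosis, lipid handling and lysosomes, and monocyte-derived macrophages that enter the lesion express many of the same genes. Border-associated macrophages of the meninges and perivascular spaces form another Csf1r-positive population. Because lesion microglia can lose homeostatic markers, fewer marker-bearing cells and less marker RNA per cell cannot be told apart by a rule that counts cells with a marker UMI.

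Il6, which encodes the cytokine named in the genotype, was detected in all 4 libraries and was not lower in those labelled knockout. It lies at chr5:30013114-30019981 on the plus strand (GRCm38, GENCODE vM21). Over the Csf1r cells it was at 4.61 CPM (UMIs of the gene per 1000000 UMIs, over the cells summed) in the injured wild-type library and at 21.3 CPM in the injured knockout-labelled library. The sham libraries gave 10.4 and 24.4 CPM, so both knockout-labelled libraries were the higher of their pair. Among microglia of the injured libraries, 93 of 2223 wild-type cells (4.18%) and 251 of 2217 knockout-labelled cells (11.3%) had an Il6 UMI, and at 3000 UMIs per cell the shares were 1.72% and 5.00%. The labels do not name the targeted exon, and tags outside a deleted segment would still be counted, so these values do not check the genotype. Total UMIs of the Csf1r cells were 36677982 and 24889529, and the 2 libraries shared 2 cell barcodes among them. Markers of T and NK cells summed to at most 0.427 CPM in every set of injured cells, and the 5 erythroid markers to at most 51.7 CPM.

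Composition differed in the direction of more marker-bearing microglia in the knockout-labelled library. Microglia were 2223 of 2787 Csf1r cells in the injured wild type (79.8%, 78.2 to 81.2) and 2217 of 2444 in the injured knockout-labelled library (90.7%, 89.5 to 91.8). The rest made up 20.2% and 9.29%. The sham libraries had 86.8% and 91.7% microglia, so the injured wild type was the lowest of the 4 libraries. By UMIs in place of cells, microglia held 80.1% in the injured wild type and 94.1% in the knockout-labelled library. The number of markers per cell shifted as a whole: all 4 markers were detected in 39.2% of wild-type and 59.3% of knockout-labelled cells, and none in 8.86% and 3.11%.

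**Figure D1:**
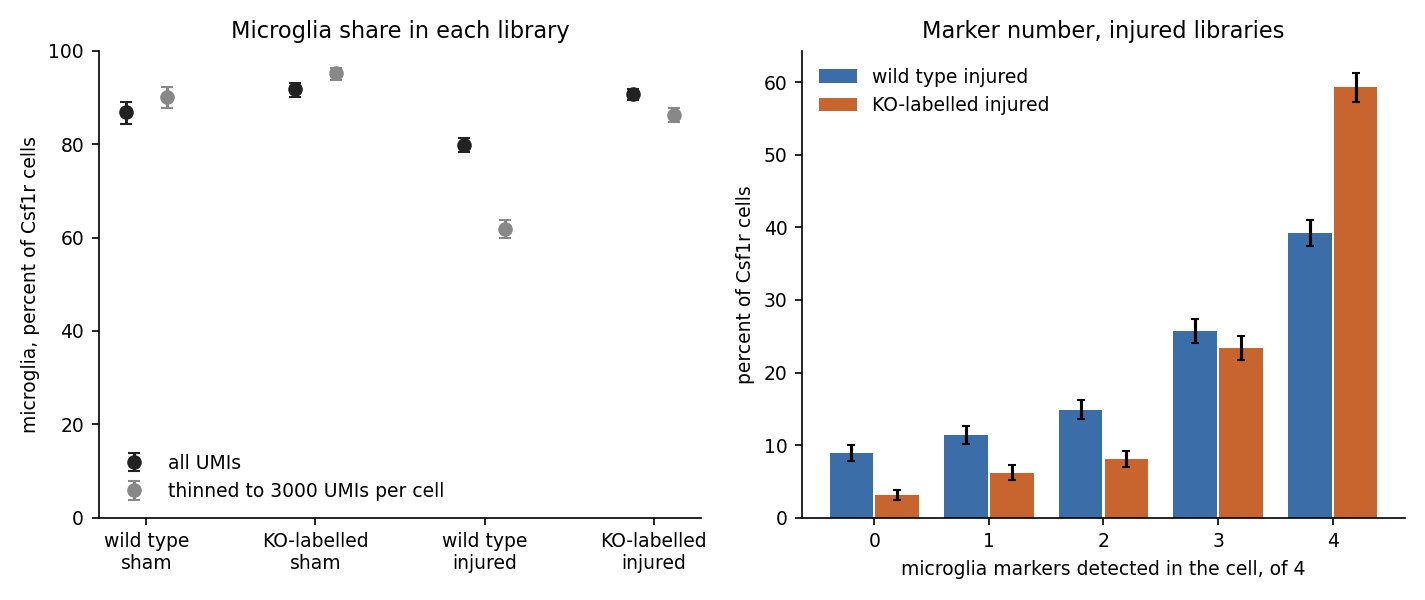
Left, microglia as a percentage of Csf1r cells in the 4 libraries, at full depth and after thinning each cell to 3000 UMIs, with exact 95% intervals. Right, percentage of Csf1r cells of the 2 injured libraries by the number of microglia markers detected (0 to 4). The injured wild type stands lowest on the left, at 79.8% at full depth and 61.8% after thinning, and on the right it has the larger share at 0 to 3 markers.

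UMIs per cell differed between the libraries, and unevenly over the kinds of cell. Median UMIs per cell were 10513 in wild-type and 9205 in knockout-labelled microglia, but 12193.5 and 4031 in the rest. In cells with all 4 markers the medians were 9753 and 9756. When each cell was thinned to 3000 UMIs, 2731 of 2996 wild-type and 2322 of 2638 knockout-labelled cells were deep enough and Csf1r remained detected in 2353 and 2153. Microglia were then 61.8% (59.8 to 63.8) and 86.3% (84.8 to 87.8). At equal depth the gap between the libraries was wider than at full depth. In endothelial-marked cells without Csf1r, which should lack the markers, at least 2 of the 4 were detected in 1 of 66 wild-type and 4 of 107 knockout-labelled cells, at median depths of 4400 and 4264 UMIs. Those shares are 1.52% and 3.74%. Csf1r itself was detected in 46.3% and 35.5% of all endothelial-marked cells, so the Csf1r criterion admitted some cells that carry endothelial markers.

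The rest was not the same mixture in the 2 libraries. Of 9 genes of infiltrating and border-associated macrophages (Ms4a7, Mrc1, Pf4, Cd163, F13a1, Ccr2, Cd209a, Fn1 and Ly6c2), at least 2 were detected in 67.4% of the wild-type rest (63.3 to 71.2) and in 36.1% of the knockout-labelled rest (29.9 to 42.7). At 3000 UMIs per cell, with microglia and rest assigned anew on the thinned counts, these shares were 32.5% and 23.1%. The thinned rest thus also holds cells that lost markers by thinning. Cells with at least 3 endothelial genes were 3.72% of the wild-type and 11.9% of the knockout-labelled rest. Summed over the 10 endothelial markers, the rest had 813 and 3996 CPM, whereas microglia had 622 and 623 CPM. The knockout-labelled rest thus held a smaller macrophage-gene fraction and a larger endothelial-marked fraction. The part of these fractions in the gene differences of the rest was not tested.

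Macrophage genes also appeared inside the microglia of the rule. At least 2 of the 9 were detected in 25.1% of wild-type microglia and 5.05% of knockout-labelled microglia, with median depths of 20224 and 17911.5 UMIs in those cells. At 3000 UMIs per cell, with microglia also assigned anew on the thinned counts, the shares were 4.12% and 0.807%. Their depth was above the median of all microglia, and microglia that express macrophage genes cannot be told apart here from doublets. When Scrublet's highest scored cells were left out, 113 wild-type and 89 knockout-labelled cells were removed, and the number of genes at least 2-fold lower within microglia went from 69 to 61.

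Over all Csf1r cells, more genes were lower than higher in the knockout-labelled library. With a prior of 10 CPM and a minimum of 20 CPM in 1 library and 50 UMIs in both together, 5539 genes were measured. Past 2-fold, 91 genes (1.64% of those measured) were lower in the knockout-labelled library and 19 genes (0.343%) were higher, of which 2, Siglech and P2ry12, belong to the marker rule and are not counted further. The median log2 ratio over all measured genes was 0.12. In the sham pair, the same rule gave 26 lower and 7 higher genes of 6272. With every cell weighted equally the injured libraries gave 68 lower and 3 higher genes, and with every cell thinned to 3000 UMIs 56 lower and 0 higher.

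The largest differences were in genes of lesion-associated macrophages and microglia. Spp1, which encodes the secreted phosphoprotein osteopontin and lies at chr5:104435118-104441050 on the plus strand, was at 12180.2 CPM in the injured wild type and 1171 CPM in the knockout-labelled library, against 10.2 and 12.6 CPM in the sham libraries. It was 10.4-fold lower (10.3 to 10.5, log2 ratio -3.37). Cd5l, a secreted scavenger-receptor family protein of macrophages at chr3:87357881-87371073 on the plus strand, was counted as 9098 UMIs (248 CPM) and 374 UMIs (15.03 CPM), so it was 16.5-fold lower (14.9 to 18.4). Both genes were far above sham in the injured wild type, and both remained above sham in the injured knockout-labelled library at much lower levels.

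The 10 next lowest genes were dominated by lipid handling and phagocyte genes. Fabp5, a fatty acid binding protein, was at 1883 and 258 CPM (7.29-fold lower), and the apolipoprotein Apoc2 at 297 and 37.4 CPM (7.94-fold). Lyz2, the lysozyme of myeloid cells, was at 13829 and 2641 CPM (5.24-fold), and Gpnmb, a transmembrane glycoprotein of lipid-laden phagocytes, at 1314 and 227 CPM (5.78-fold). The lipid droplet protein Plin2 was 5.35-fold lower, the macrophage membrane protein Ms4a7 5.25-fold, Wfdc17 9.79-fold, the phospholipase Pla2g7 6.07-fold, the matrix protein thrombospondin 1 (Thbs1) 6.58-fold and the apolipoprotein Apoc1 5.94-fold. Gpnmb was at 0.203 and 0 CPM in the sham libraries, so in both genotypes it was seen almost only after injury.

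The genes that were higher in the knockout-labelled library differed by smaller factors, and the 12 highest were, with the exception of Il6, at higher CPM in microglia than in the rest of both libraries. Klk8, a serine protease, was at 27.6 and 85.6 CPM (3.10-fold higher, 2.88 to 3.34). Lag3, an immune checkpoint receptor also found on microglia, was at 94.0 and 248 CPM (2.64-fold), and Selplg, which encodes P-selectin glycoprotein ligand 1, at 474 and 1154 CPM (2.44-fold, 2.39 to 2.48). Selplg was at 1809.6 and 2249.6 CPM in the sham libraries, so the knockout-labelled value lay between the injured wild type and sham. The same order held for Cst3, which encodes cystatin C, an inhibitor of cysteine proteases: 17294 CPM in the injured wild type, 35325 CPM in the knockout-labelled library and 48778 and 56762 CPM in sham. Further genes among the 12 highest were the chemokine Ccl9 (149 and 368 CPM), the fructose transporter Slc2a5 (38.2 and 103 CPM), Arhgap5, Ighm, Lrba, H2-Oa, Fscn1 and Il6. Ccl9 did not follow the sham order: it was at 111 and 144 CPM in the sham libraries, below the injured knockout-labelled value.

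The difference of each gene in CPM was then split exactly into 3 terms. The composition term is the change in the UMI shares of microglia and rest at mean levels, and the other terms are the change of level within microglia and within the rest at mean shares. A gene was called mainly of 1 kind where that term was at least 2/3 of the sum of the absolute terms. Of the 108 genes past 2-fold without the rule genes, 0 were mainly composition, 55 were mainly level within microglia, 0 were mainly level within the rest and 53 were mixed. For the 91 lower genes the median composition term was 22.8% of the difference (range -4.34 to 63.3%), the median microglia-level term 63.5% and the median rest-level term 13.9%. For the 17 higher genes the medians were 14.5%, 82.4% and 3.74%.

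With this 2-part rule, the change of shares alone did not reach 2-fold for any measured gene. If only the UMI shares had changed, the largest fall among all 5539 genes would have been 1.78-fold, and 12 genes would have passed 1.5-fold. Among the 91 lower genes, 3 would have passed 1.5-fold and the largest value was 1.60-fold. If only the levels within the parts had changed, 67 of the 91 lower and 12 of the 17 higher genes would still have passed 2-fold. The number of genes called mainly microglia level depends on the marker threshold: it was 103 with at least 1 marker and 13 with at least 3. It also depends on depth: with cells thinned to 3000 UMIs, where fewer genes passed 2-fold, it was 3.

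**Figure D2:**
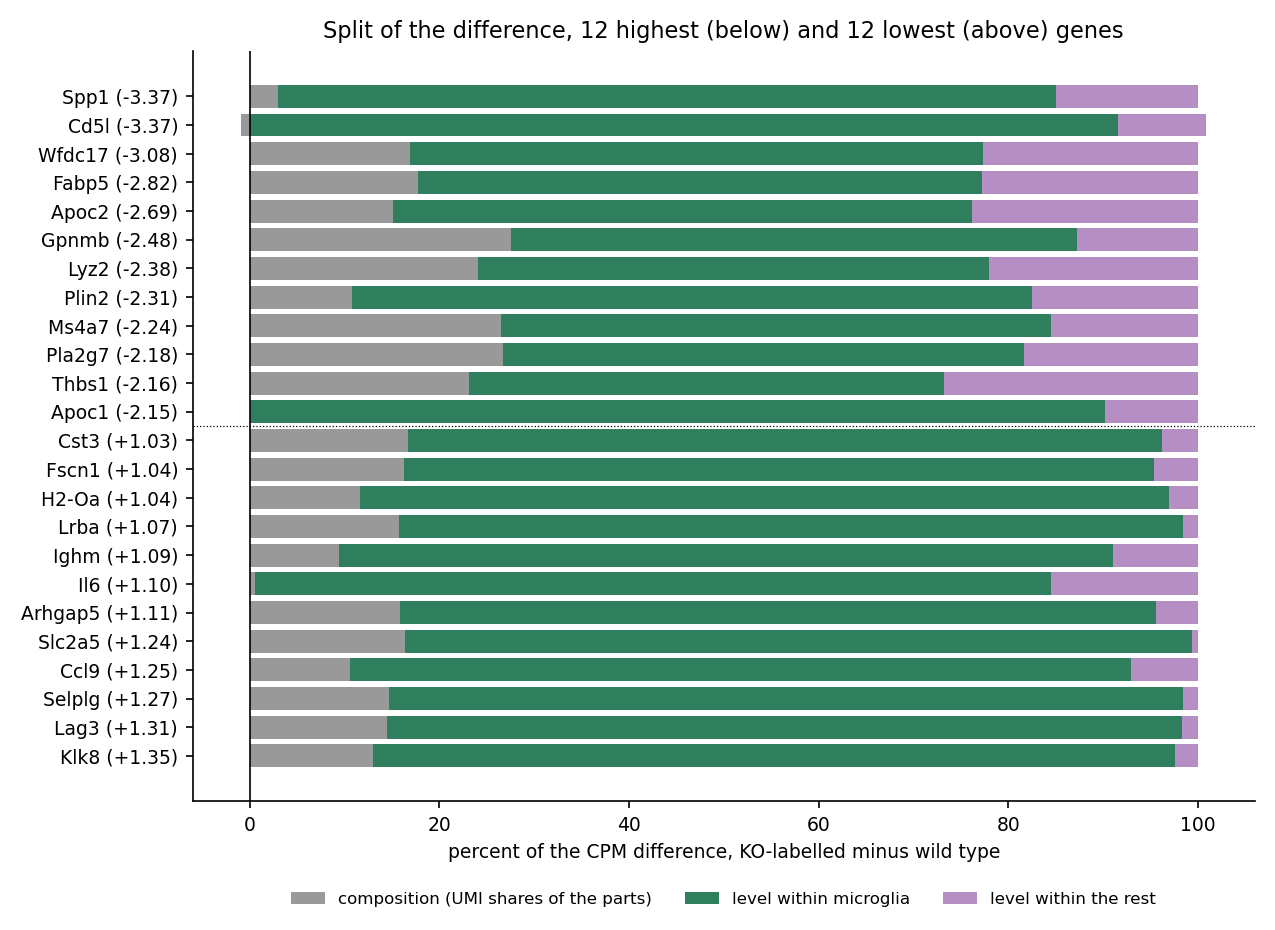
Split of the CPM difference (knockout-labelled minus wild type) for the 12 genes with the lowest and the 12 with the highest log2 ratio over all Csf1r cells, in percent of the difference (horizontal axis), with the log2 ratio in parentheses. The level within microglia is the longest segment for each of the 24 genes, from 50.04% for Thbs1 to 91.5% for Cd5l, and composition ranges from -0.903% for Cd5l to 27.6% for Gpnmb.

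Genes at one end of the split had almost no composition term. Spp1 was at 11473 and 1102 CPM within microglia and at 15017 and 2275 CPM within the rest, so it was several-fold lower in both, and composition made up 3.01% of its difference. Cd5l was at 259 and 13.7 CPM in microglia and 206 and 36.8 CPM in the rest, with a composition term of -0.903%. The growth factor gene Igf1 was at 367 and 88.1 CPM in microglia, 417 and 251 CPM in the rest, and had a term of 5.33%. Apoc1 and Ctla2a gave 0.147% and 2.77%. The composition term uses levels averaged over both libraries. For these genes the averages in microglia and rest differed little relative to the difference over all cells. At wild-type levels, the change of shares alone would have made Ctla2a 1.06-fold higher, although it was lower over all cells.

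Apoe, the apolipoprotein with the most UMIs here, was chosen after its values were seen. It was at 63162 CPM in the injured wild type, 18219 CPM in the knockout-labelled library and 3779.7 and 2208 CPM in sham. Within microglia it was 3.34-fold and within the rest 1.96-fold lower, and 73.2% of the difference lay in the microglia level, with 12.7% in composition. CPM values sum to a constant, so a gap of this size in Apoe bears on the CPM of the other genes. Median-of-ratios scaling, which does not use the total, divided knockout-labelled levels over all cells by a factor of 0.14 on the log2 scale. With the prior of 10 CPM, the log2 ratios of genes at low CPM fell by less. This scaling left 8 genes past 2-fold in the higher and 104 in the lower direction.

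At the other end were genes concentrated in the rest. Pf4, a chemokine gene of border-associated macrophages, fell from 129 to 55.8 CPM over all cells, and its terms were 63.3% for composition, 75.0% for the microglia level and -38.3% for the rest level, which moved the other way. F13a1, which encodes a coagulation factor subunit, gave 62.7%, 55.2% and -17.9%. Cybb, a subunit of the phagocyte NADPH oxidase, gave 50.8% for composition, and the phospholipid transfer protein gene Pltp 47.5%. The intermediate filament gene Vim, at 445 and 151 CPM over all cells, was at 983 and 1046 CPM in the rest and 311 and 95.3 CPM in microglia. In 11 of the 91 lower genes the rest-level term opposed the difference over all cells.

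The parts were also compared directly. Within microglia, 69 of 5487 measured genes (1.26%) were past 2-fold on the lower side and 6 (0.109%) on the higher side, namely Slc2a5, Il6, Selplg, Lag3, Klk8 and Ccl9. Within the rest, the balance was the opposite, with 38 of 5771 lower (0.658%) and 289 higher (5.01%). Of the 91 genes lower over all cells, 76 were measured in microglia and 65 of them were at least 2-fold lower there, whereas 90 were measured in the rest and 21 were. These genes were picked from the same cells, and microglia held 80.1% and 94.1% of the UMIs. Their recurrence in microglia is therefore partly built in. The same holds for the counts of the lower and higher genes in finer parts below. The sham pair also had more higher than lower genes in the rest, 258 and 53 of 3959, from 115 and 105 cells.

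Summed RNA of several other-cell lists was higher in the knockout-labelled rest, but cells marked by these lists were not always more frequent. Rest cells with at least 3 neutrophil genes were 1.42% in the wild type and 1.32% in the knockout-labelled library. With at least 3 oligodendrocyte genes they were 3.37% and 1.76%, and with at least 3 astrocyte genes 1.95% and 4.41%. Only 3 knockout-labelled rest cells held all 911 UMIs of the neutrophil gene S100a9. Summed CPM of the marker lists in the wild-type and knockout-labelled rest was 131 and 1199 for neutrophils (with Ltf, Camp and Ngp at 0 in the latter), 139 and 510 for oligodendrocytes, 56.7 and 211 for astrocytes, and 130 and 76.9 for mural cells and fibroblasts. When cells with at least 3 genes of one such list were left out, 504 wild-type and 185 knockout-labelled rest cells remained, and the higher genes of the rest fell from 289 to 120. That choice was made after seeing the data. It took 60 wild-type and 42 knockout-labelled cells out of the rest, and the lower genes within microglia went from 69 to 60.

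**Figure D3:**
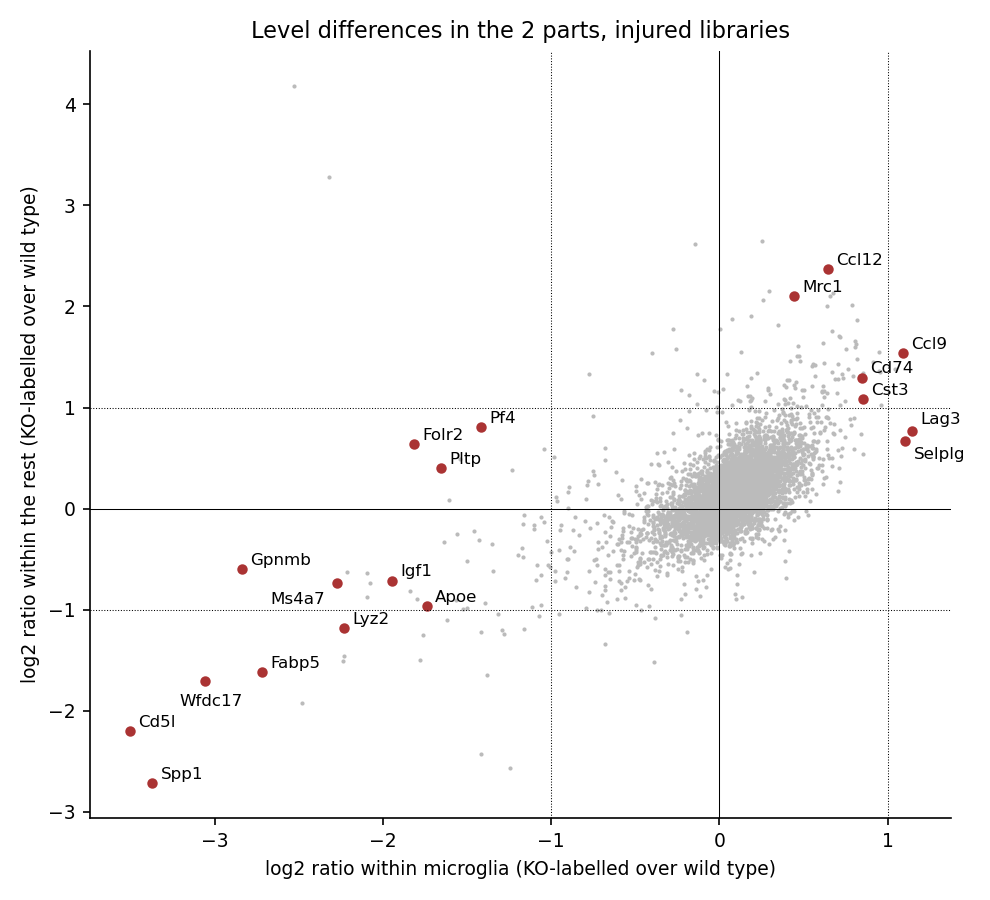
Log2 ratio of knockout-labelled over wild type within microglia (horizontal) and within the rest (vertical) for genes measured in both, injured libraries. Points are genes, dotted lines mark 2-fold, and named genes are red: Spp1, Cd5l, Wfdc17 and Fabp5 lie lower in both parts, Pf4 and Folr2 lower in microglia and higher in the rest, and Ccl12 and Mrc1 more than 2-fold higher only in the rest.

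Among 5064 genes measured in both parts, 8 were at least 1.5-fold lower in microglia and at least 1.5-fold higher in the rest (Ahnak, Dab2, Folr2, Id3, Pf4, Plk2, S100a8 and S100a9), and 0 did the reverse. Pf4 was at 91.3 and 28.0 CPM in microglia and at 282 and 500.4 CPM in the rest. Folr2, a folate receptor gene of border-associated macrophages, was at 82.7 and 16.4 CPM in microglia and 67.7 and 111 CPM in the rest. S100a9, a calcium-binding protein gene of neutrophils, rested on very few cells: 3 of 227 knockout-labelled rest cells held all of its 911 UMIs, and 1 of 2223 wild-type microglia held 1566 of 2349. These S100a9 values are values of a few cells, and S100a9 with the other 5 of the 8 besides Pf4 and Folr2 was named after its values were seen.

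Within microglia, the spread over cells differed between genes. Spp1 had a median of 304 CPM per wild-type microglial cell and 0 per knockout-labelled cell, and 90th percentiles of 14783 and 523 CPM. The 222 cells with the highest Spp1 level in each library held 85.9% and 97.0% of the Spp1 UMIs. Apoe was spread more evenly, with medians of 24387 and 4207 CPM. Apoe UMIs were also found in endothelial-marked cells without Csf1r, in 66 of 66 wild-type and 103 of 107 knockout-labelled cells. The part of RNA from outside the cell in the Apoe medians was not tested. Selplg medians were 563 and 1270 CPM and Cst3 medians 22313 and 41250 CPM. The median cell thus differed for Spp1, Apoe, Selplg and Cst3. For Spp1, a minority of strongly expressing cells also held most UMIs in both libraries.

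Detection at equal depth was compared next, with microglia assigned before thinning. In microglia thinned to 3000 UMIs, 2147 wild type and 2081 knockout-labelled, Spp1 was detected in 63.1% and 17.9% of cells, and before thinning in 84.3% and 28.9%. Spp1 UMIs were also found in thinned endothelial-marked cells without Csf1r, in 24 of 48 wild-type cells and 7 of 82 knockout-labelled cells (8.54%). Their summed Spp1 level was 724 and 25.9 CPM, against 11473 and 1102 CPM in microglia. Cd5l was detected in 12.4% and 1.20% of thinned microglia and in 1 of 48 and 0 of 82 endothelial-marked cells, where 0 of 82 allows up to 3.66%. For Gpnmb the shares were 24.4% and 3.89%, for Fabp5 42.0% and 13.4%, and for Igf1 30.0% and 9.47%. Before thinning, Fabp5 was found in 11 of 66 wild-type and 12 of 107 knockout-labelled endothelial-marked cells without Csf1r. Lag3 was detected in more knockout-labelled cells, with 32.9% and 54.6%, and so was Selplg, with 71.9% and 90.4%, against 8.33% and 8.54% in the endothelial-marked cells.

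The parts were next divided by how many markers a cell had. Spp1 was lower in the knockout-labelled library at every marker number, by 10.8-fold with 0 markers, 5.90-fold with 1, 3.68-fold with 2, 9.98-fold with 3 and 10.8-fold with 4. In cells with all 4 markers, the strictest microglia here, it was at 6619 and 612 CPM. Gpnmb differed more the more markers a cell had, from 1.43-fold lower with 0 markers (3491 and 2446 CPM) to 10.0-fold with 4 (596 and 59.5 CPM). Lyz2 ran from 2.15-fold to 4.03-fold over the same range, and Ms4a7 was 2.00-fold, 1.59-fold, 1.69-fold, 4.40-fold and 9.57-fold lower with 0 to 4 markers. Marker-free cells of the 2 libraries thus had more similar Gpnmb and Ms4a7 levels than cells with all markers. Without thinning, Lyz2 UMIs were also found in endothelial-marked cells without Csf1r, in 49 of 66 wild-type and 16 of 107 knockout-labelled cells. Gpnmb was found in 9 of 66 and 1 of 107 of them. The part of RNA from outside the cell in these folds was not tested.

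Cst3 and Selplg were higher in the knockout-labelled library at every marker number. Cst3 was 1.95-fold, 2.08-fold, 2.23-fold, 1.73-fold and 1.52-fold higher with 0 to 4 markers, and Selplg 1.46-fold, 1.67-fold, 2.21-fold, 2.09-fold and 1.79-fold. Both were higher with each added marker in each library, from 3779.7 to 25879 CPM for Cst3 in the wild type. Calls differed along the marker numbers. In cells with all 4 markers, 0 of 5476 measured genes (0%) were past 2-fold on the higher side and 54 (0.986%) on the lower side, and of the 91 lower genes 71 were measured there and 48 were at least 2-fold lower. Of the 17 higher genes all were measured there and 0 reached 2-fold, with a median log2 ratio of 0.70. With 3 markers 18 genes were higher (0.331%) and 54 lower (0.994%), with 2 markers 88 (1.6%) and 51 (0.929%), with 1 marker 162 (2.88%) and 47 (0.835%), and with 0 markers 376 (6.56%) and 92 (1.61%). Of the 91 lower genes, 47 of 72 measured were at least 2-fold lower with 3 markers, 38 of 90 with 2, 23 of 90 with 1 and 29 of 90 with 0, where 3 were at least 2-fold higher. The libraries contributed 247 and 76 marker-free cells.

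**Figure D4:**
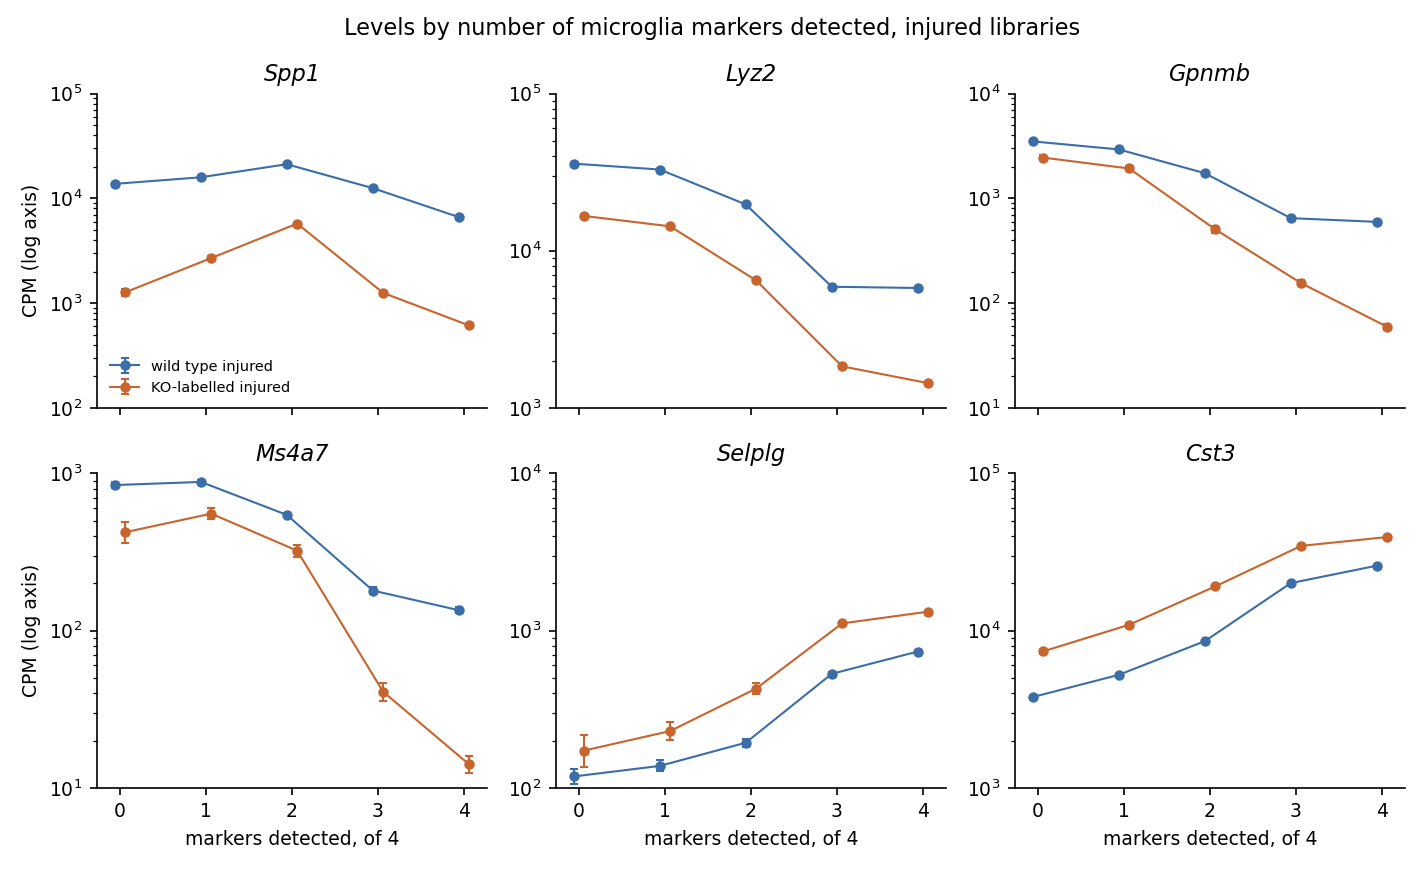
CPM (log axis) of 6 genes in cells grouped by the number of microglia markers detected (0 to 4), injured wild type in blue and injured knockout-labelled in orange, with exact Poisson 95% intervals. Spp1, Lyz2, Gpnmb and Ms4a7 are lower and Selplg and Cst3 higher in the knockout-labelled library at each marker number, with the widest gap for Gpnmb and Ms4a7 at 4 markers.

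Dividing the cells into 5, 4 or 10 parts raised the median composition term. With 5 parts by marker number the median composition term was 36.0% for the lower and 26.7% for the higher genes. With 4 parts, in which microglia and rest were each split by whether at least 2 of the 9 macrophage genes were detected, the medians were 53.8% and 41.6%, and with 10 parts 59.0% and 49.4%. These last divisions use genes that themselves differ, among them Ms4a7, Pf4 and F13a1, and detection of 2 genes depends on depth. A larger composition term in them is partly built in, and both divisions were added after seeing the data. The composition term of Spp1 was 3.01% with 2 parts, 16.6% with 5, 37.3% with 4 and 42.0% with 10, and that of Lyz2 was 24.1%, 35.7%, 51.3% and 55.1%. For Cst3 the values were 16.7%, 32.0%, 52.9% and 60.1%. How much was assigned to composition thus depended on how the cells were divided. It did not follow the number of parts alone, since 4 parts gave more than 5. In the wild type 35.0% of all UMIs came from microglia with at least 2 macrophage genes, against 9.71% in the knockout-labelled library.

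Spp1 and Apoe differed inside each of those 4 parts. Spp1 was at 2931 and 534 CPM in microglia with fewer macrophage genes (5.49-fold lower) and at 22455 and 6035 CPM in microglia with at least 2 (3.72-fold). In the rest the 2 values were 2.87-fold with fewer and 20.8-fold with at least 2, where it was at 16140 and 775 CPM. Apoe was 2.80-fold, 1.79-fold, 2.17-fold and 1.69-fold lower in the same 4 parts. Gpnmb was 4.16-fold and 2.55-fold lower in the microglia parts but at 2092 and 2270.1 CPM in the rest with fewer macrophage genes. In microglia with fewer macrophage genes, 28 of 5407 genes (0.518%) fell past 2-fold on the lower side and 1 (0.0185%) on the higher side. Of the 91 lower genes, 54 were measured in that part, with a median log2 ratio of -0.84, and 23 passed 2-fold. In microglia with at least 2 macrophage genes 61 of 5521 genes were higher (1.1%) and 41 lower (0.743%), and 32 of 90 of the lower genes passed 2-fold. In the rest with fewer macrophage genes 103 of 5015 were higher (2.05%) and 49 lower (0.977%), and in the rest with at least 2, from 380 and 82 cells, 270 of 5679 were higher (4.75%) and 76 lower (1.34%).

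Gene lists of known programmes were described by how many measured members were at least 1.5-fold higher or lower, beside 238 higher (4.3%) and 204 lower (3.68%) of all 5539 genes over all cells. Within microglia the same background was 122 higher (2.22%) and 151 lower (2.75%), and within the rest 731 higher (12.7%) and 146 lower (2.53%). The 5 genes of the cell rule are left out of every list count. For finer parts the 1.5-fold background is not given, so only list medians can be set against all measured genes there. Those medians were 0.07 with 4 markers, and 0.06 and 0.11 in microglia with fewer and with at least 2 macrophage genes. In the rest they were 0.07 with fewer and 0.20 with at least 2.

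Homeostatic microglia genes were higher in the knockout-labelled library. Of 23 measured over all cells, 12 were higher and 0 lower, with a median log2 ratio of 0.59, and within microglia 8 of 23 were higher and 0 lower, with a median of 0.44. In the rest 10 of 22 were higher and 0 lower, with a median of 0.53. In microglia with fewer than 2 macrophage genes, which held 45.0% of wild-type and 84.4% of knockout-labelled UMIs, 2 of 23 were higher (median 0.22), and in cells with all 4 markers 3 of 23 (median 0.32). The medians over all cells and microglia became 0.45 and 0.32 when scaled by median of ratios, and at 3000 UMIs per cell 0.40 and 0.19. Summed over the list, the level was 32596 CPM in the injured wild type, 58679 CPM in the knockout-labelled library and 75904 and 88468 CPM in sham. Of the summed difference, 19.1% was composition, 77.6% microglia level and 3.32% rest level. Selplg, Cst3 and Slc2a5 belong to this list, and Sparc, a matricellular protein gene, was at 1671 and 3153 CPM. Cx3cr1, the fractalkine receptor, was chosen after its values were seen and was at 925 and 1401 CPM. As a description of the rule genes, P2ry12 was at 586 and 1149 CPM within microglia, Siglech at 302 and 592, Tmem119 at 293 and 517 and Sall1 at 103 and 165. These 4 genes chose the cells, so nothing is read from their levels.

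Lipid handling and lesion macrophage genes were lower. Of 20 measured apolipoprotein and lipid genes, 15 were lower and 0 higher (median -1.11). Within microglia 13 of 18 were lower (median -1.09) and within the rest 11 of 21 (median -0.62, with 3 higher). Of 18 lesion macrophage genes, 16 were lower and 0 higher over all cells (median -1.38), 12 of 14 were lower in microglia (median -1.85) and 8 of 21 in the rest (median -0.15, with 2 higher). At 3000 UMIs per cell the median of the lesion macrophage list in the rest was -1.11. Both lists share members with the disease-associated microglia list, of which 10 of 27 were lower and 1 higher (median -0.10), and in the rest 8 of 27 lower and 4 higher (median -0.16). Of that list, Spp1, Fabp5, Gpnmb and Lyz2 were among the 12 lowest genes, and the 1 higher gene was the chemokine Ccl6, at 172 and 332 CPM. Ccl6 was outside the naming rule and chosen after its values were seen. The integrin gene Itgax, at 25.0 and 36.4 CPM, did not pass 1.5-fold.

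Border-associated macrophage genes had opposite medians in the 2 parts. Over all cells 7 of 11 were lower and 1 higher (median -0.90), and within microglia 7 of 10 were lower and 1 higher (median -0.93), but within the rest 12 of 17 were higher and 1 lower (median 1.12). The direction also turned inside each part. With at least 2 of the 9 macrophage genes, 9 of 17 measured genes were higher and 2 lower in microglia (median 0.88) and 17 of 18 higher in the rest (median 1.90). With fewer, 4 of 7 were lower and 1 higher in microglia (median -0.59) and 4 of 8 lower and 1 higher in the rest (median -0.57). In the rest with at least 2 of the 9 macrophage genes, Pf4 was at 346 and 1088 CPM (3.14-fold higher) and Folr2 at 74.6 and 233 CPM (3.12-fold). Mrc1, the mannose receptor of border-associated macrophages, was chosen after its values were seen and was at 118 and 966 CPM there. Mrc1, Pf4, Cd163 and F13a1 are among the 9 genes that define the parts with more and with fewer, so this turn may be partly built in. Detection of 2 genes also depends on depth, and the rest with at least 2 had median depths of 14874.5 and 7583 UMIs. How far either bears on the turn was not tested. At 3000 UMIs per cell the list medians were -0.58 in microglia and 0.82 in the rest.

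Summed over the MHC class II genes, which present antigen to CD4 T cells, the shares and the levels moved in opposite directions. The composition term was -616 CPM, and the level terms were 346 CPM in microglia and 527 CPM in the rest. H2-Aa was at 199 and 187 CPM over all cells, 77.0 and 106 in microglia and 689 and 1478 in the rest, and the invariant chain gene Cd74 at 336 and 413, 145 and 269, and 1101 and 2717 CPM. Both were chosen after their values were seen. With only the shares changed, H2-Aa would have been 1.76-fold lower and H2-DMb1 1.02-fold lower. H2-Oa, H2-DMa and H2-Ob would have been 1.10-fold, 1.03-fold and 1.10-fold higher, so not every member followed the sum. On the list, 3 of 8 measured genes were higher over all cells (H2-Oa, H2-DMa and H2-DMb1, median 0.32), 4 of 8 in microglia (median 0.56) and 6 of 6 in the rest (median 1.13), with 0 lower in each. At 3000 UMIs per cell the medians were 0.15, 0.22 and 0.91. The parts with fewer macrophage genes did not share this direction. In the rest with fewer, 0 of 7 were higher and 4 lower (median -1.14), with Cd74 at 1210.3 and 545 CPM, and in microglia with fewer, 1 of 8 was higher and 2 lower (median 0.09).

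**Figure D5:**
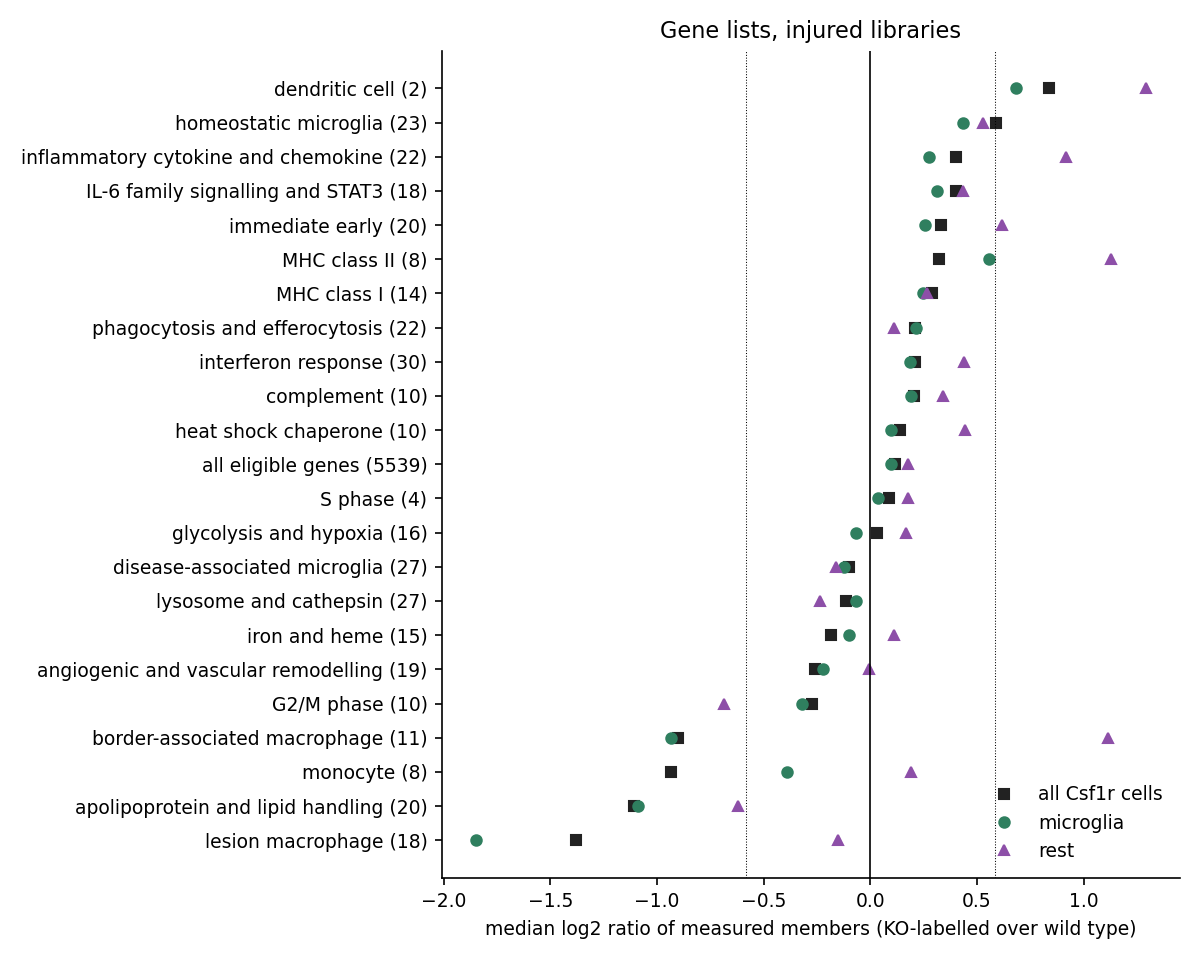
Median log2 ratio (knockout-labelled over wild type) of the measured members of each gene list over all Csf1r cells, microglia and rest, with the number measured over all cells in parentheses and dotted lines at 1.5-fold. Homeostatic genes lie to the right and lipid and lesion macrophage genes to the left in all 3 sets of cells, while border-associated macrophage genes lie at -0.93 in microglia and 1.12 in the rest.

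Cytokine genes and genes of the IL-6 pathway were counted over all cells and in each part, beside the background of 4.3% higher over all cells and 12.7% in the rest. Of 22 measured inflammatory cytokine and chemokine genes, 6 were higher and 0 lower (median 0.40), in microglia 6 were higher and 1 lower (median 0.27), and in the rest 15 of 24 were higher and 1 lower (median 0.92). At 3000 UMIs per cell the medians were 0.15 over all cells and 0.42 in the rest. Ccl12, a chemokine that attracts monocytes, was at 250.0 and 461 CPM over all cells and 86.7 and 489 CPM in the rest, and Il1a, which encodes interleukin 1 alpha, at 318 and 592 CPM over all cells. Of 18 genes of IL-6 family signalling and STAT3, 2 were higher, Il6 itself and the transcription factor Cebpd (59.8 and 101 CPM), and 0 lower (median 0.40). In microglia 1 of 17 was higher and 0 lower (median 0.31), and in the rest 6 of 16 were higher and 1 lower (median 0.44). Socs3, the STAT3-induced feedback inhibitor, was at 289 and 431 CPM against 423 and 514 CPM in sham, and Lifr, a co-receptor subunit of the IL-6 family, at 10.4 and 20.0 CPM. The median of the IL-6 list over all cells was 0.28 under median-of-ratios scaling.

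Growth factor, phagocytosis, lysosome and iron genes differed in part. Of 19 angiogenic and vascular remodelling genes, 8 were lower and 1 higher (median -0.26), and in the rest 6 of 24 were lower and 6 higher (median -0.01). The lower genes over all cells included Spp1, Thbs1, Igf1 and the metalloprotease Adam8 (37.5 and 7.59 CPM). Of 22 phagocytosis and efferocytosis genes, 6 were lower and 2 higher (median 0.21), with Cd93 at 43.5 and 8.52 CPM and the scavenger receptor Stab1 at 245 and 126 CPM. Mfge8, which bridges phagocytes and dying cells, had a rest-level term of 40.6%, at 85.2 and 23.1 CPM in the rest. Of 27 lysosome genes, 4 were lower and 1 higher (median -0.11), with cathepsin B (Ctsb) at 7869.5 and 4401 CPM and cathepsin F (Ctsf) at 105 and 189 CPM. Of 15 iron and heme genes, 5 were lower and 0 higher (median -0.18), and in the rest 4 of 16 were higher and 0 lower (median 0.11), with the ferritin chains over all cells, Ftl1 at 12415 and 6038 and Fth1 at 11956 and 7721 CPM.

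The remaining lists were counted over all cells, and those with at least 4 members past 1.5-fold in 1 direction in the rest are also given there. Of 30 interferon response genes 1 was higher and 1 lower (median 0.21), of 14 MHC class I genes 2 were higher and 0 lower (median 0.29), of 10 complement genes 2 were higher and 1 lower (median 0.21), and of 16 glycolysis and hypoxia genes 1 was higher and 0 lower (median 0.03). Cfp, which encodes properdin, was at 29.3 and 5.10 CPM. Of 10 measured G2/M genes 2 were lower (median -0.27), the centromere histone gene Cenpa at 34.9 and 16.3 CPM and Birc5, which encodes survivin, at 26.6 and 13.4 CPM. The proliferation marker Mki67, at 22.6 and 11.9 CPM, did not pass 1.5-fold, and of 4 S phase genes 0 passed it (median 0.09). Within the rest, 9 of 31 interferon response genes were higher and 0 lower (median 0.44), 5 of 8 G2/M genes were lower and 0 higher (median -0.69), and 5 of 12 heat shock genes were higher and 0 lower (median 0.44). Summed over the G2/M list, the rest was at 360 CPM in the wild type and 365 CPM in the knockout-labelled library. The G2/M median was 0.35 in marker-free cells and -0.76 in cells with 1 marker. Of 8 monocyte genes 6 were lower over all cells and 0 higher (median -0.93), with Thbs1 and Chil3 leading, but within the rest 4 of 12 were higher and 1 lower (median 0.19). Of the summed difference of the monocyte list, composition made up 100.4%, the microglia level 62.8% and the rest level -63.2%. Both measured dendritic cell genes, Fscn1 and Batf3, were higher, and in the rest 4 of 5 were higher and 1 lower (median 1.29). Fscn1 and Batf3 were both at higher CPM in microglia than in the rest of each library, and the other 13 listed dendritic cell genes were below the minimum over all cells. Of 20 immediate early genes, which also respond to tissue dissociation, 7 were higher and 1 lower (median 0.33), and 10 of 20 were higher in the rest (median 0.62). Egr1 was at 957 and 1667 CPM against 3229 and 2988 CPM in sham. Of 10 heat shock genes 0 passed 1.5-fold over all cells (median 0.14).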

How the data were processed

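The 4 libraries were measured with the 10x Genomics 3′ chemistry. The deposited matrices hold raw UMI counts, whole numbers for each gene in each barcode. The submitters' processing notes name Cell Ranger 6.0.1 and mm10, and give no annotation release. Names came from the deposited tables, and 32235 of 32285 gene identifiers (99.8%) matched GENCODE vM21, which gave the coordinates. No deposited column was left unused.

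Cells were kept with the limits given in the report. Counts were summed over all Csf1r cells, microglia and rest of each library and given as CPM. Fold changes are ratios of CPM, while calls and log2 ratios use a prior of 10 CPM. Genes were measured with at least 20 CPM in 1 of the 2 libraries and 50 UMIs in both together. The split weights each term with the mean of both libraries. It was run on simulated counts with the parts known, which cannot show errors from missed markers or misassigned cells. Intervals at 95% are exact Poisson (CPM), Clopper-Pearson (shares) and conditional binomial (ratios). A count of 0 is given with the limit of 3 counts. With 1 library per group no p-value was computed.

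Doublets were kept. Scrublet, through scanpy 1.11.5, served as an alternative at 0.8% per 1000 barcodes. The other alternatives changed the marker threshold, depth, mitochondrial limit, Csf1r criterion, weighting of cells, scaling, prior, gene filter, weights and number of parts. Python 3.11.15, numpy 2.4.6, pandas 2.3.3, scipy 1.17.1 and matplotlib 3.10.9 were used.

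Genes were named by rule: the 12 highest and 12 lowest log2 ratios over all Csf1r cells, up to 4 members per list, the 6 genes past 2-fold with the largest share of each term, and genes past 1.5-fold in opposite directions in both parts at 100 CPM, of which there were 0. The cell rule's 5 genes, sex-linked, mitochondrial and haemoglobin genes and unnamed gene models were left out of the extremes. The members, the 22 gene lists and the 9 marker lists of other cells were chosen with earlier results of these data known. Of 521 listed genes, 1 was not in the table.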

Additional observations from a re-analysis of the deposited data

Results flagged for a closer look

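Pf4 had opposite directions in the 2 kinds of cell, with a log2 ratio of knockout-labelled over wild type of -1.42 in microglia and 0.80 in the rest. Folr2, also a gene of border-associated macrophages, had log2 ratios of -1.81 and 0.64. The median of the border-associated macrophage list was -0.93 over 10 genes measured in microglia and 1.12 over 17 genes measured in the rest. These were singled out because the same contrast pointed in opposite directions in both kinds of cell. The opposition did not hold within each kind of cell: the list median was 0.88 in microglia with at least 2 of the 9 macrophage genes and -0.57 in the rest with fewer. Pf4 is itself among those 9 genes, so this turn may be partly built in. The difference was not tested, because each group is 1 library, and the rest held 564 wild-type and 227 knockout-labelled cells at median depths of 12193.5 and 4031 UMIs.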

How the results depend on the processing

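No paired analysis was possible because each group is 1 mouse and 1 library, and for the same reason leaving out a replicate was not run. Depth limits the marker rule, since a marker is missed more often in a shallow cell, and it limits the rest of the knockout-labelled library most. Fold changes of genes near 20 CPM depend on the prior. For the 114 log2 ratios of named genes past 2-fold, 1594 of 1596 values under the alternatives kept their sign and 1426 remained past 2-fold.

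Counting cells with at least 1 marker as microglia gave shares of 91.1% (wild type) and 96.9% (knockout-labelled), 14 higher genes in microglia, 92 lower in the rest, 103 mainly microglia level, 5 mixed, a median composition term of 9.93% for the lower genes, a composition term of -0.016% for Igf1 and a G2/M median of 0.35 in the rest. With at least 3 markers the shares were 64.9% and 82.7%, with 2 higher genes in microglia, 169 higher in the rest, 1 mainly composition, 13 mainly microglia level, 94 mixed and a median term of 33.4% for the lower genes. Thinned to 3000 UMIs, the shares were 61.8% and 86.3%, with 0 higher and 56 lower genes over all cells, 0 higher and 26 lower in microglia, 89 higher in the rest, 0 lists with a median past 1.5-fold higher, 3 mainly microglia level and a median term of 37.0% for the lower genes. No composition value for higher genes could be given there. Cells with at least 3000 UMIs, unthinned, gave 81.6% and 93.9%. At most 5% mitochondrial UMIs gave 91.9% in the knockout-labelled library and 10 higher genes in microglia. At least 2 Csf1r UMIs gave 82.1% and 93.2%. Without the Csf1r criterion the shares were 74.6% and 84.8%, with 640 higher and 82 lower genes in the rest, 1 list higher and 3 genes mainly rest level.

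With cells weighted equally there were 3 higher genes over all cells, 0 higher and 42 lower in microglia, 82 lower in the rest, 0 lists higher, 14 mainly microglia level, 2 mainly rest level, and a median composition term of -88.0% for the 3 higher genes. Median-of-ratios scaling left 8 higher genes over all cells, 2 higher in microglia, 64 lower in the rest and 1 list higher. A prior of 1 CPM gave 58 higher over all cells, 26 higher in microglia, and 443 higher and 70 lower in the rest. A filter of 5 CPM and 20 UMIs left 1 list higher. A filter of 100 CPM and 50 UMIs gave 12 higher and 36 lower over all cells, 25 lower in microglia, 88 higher and 23 lower in the rest, and a G2/M median of 0.58 in the rest.

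With wild-type levels and knockout-labelled shares as weights the composition term of Folr2 was -3.65%. Median composition terms for lower and higher genes were 36.0% and 26.7% with 5 parts by marker number. The next 3 alternatives were chosen after seeing the data: 4 parts gave 53.8% and 41.6%, 10 parts gave 59.0% and 49.4%, and leaving out cells with at least 3 genes of one other-cell list gave 120 higher genes in the rest and 1 list higher. Lists with a median past 1.5-fold lower were 4 or 3 under every alternative run. The cause of these shifts was not tested.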

Other observations

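Arg1, which encodes arginase 1 of alternatively activated macrophages, was below the minimum level and was singled out after its values were seen. It had 336 UMIs over the Csf1r cells of the injured wild-type library and 1 UMI in the knockout-labelled library, a ratio of CPM of 228 (95% counting interval 40.6 to 9032).

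Some hormone and choroid plexus genes were unevenly spread over libraries and cells. Prl, which encodes prolactin, had 61 UMIs in 60 of 2217 microglia and 66 UMIs in 3 of 227 rest cells of the injured knockout-labelled library, where 1 cell held 64, and 0 UMIs in the other 3 libraries. Gh, which encodes growth hormone, had 212 UMIs in 129 microglia of that library and 13 UMIs in 4 microglia of the injured wild type, and at most 2 UMIs in microglia of each sham library. Ttr, the transthyretin gene of choroid plexus, had 29399 UMIs in 25 cells without Csf1r of the injured knockout-labelled library, of which 1 cell held 19705, and 16793 UMIs in 31 such cells of the knockout-labelled sham library.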
